A study of Drosophila melanogaster with 3 samples.

Results

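Peaks of the tagged zinc finger protein CG6254 whose summits lay at or downstream of the transcription start site (TSS) of a protein-coding gene were examined in Drosophila melanogaster embryos. A peak was a member when its summit, on the dm6 build, had its nearest protein-coding TSS within 500 bp and lay at that TSS or downstream of it in the direction of the gene. Summits between the starts of 2 genes that face away from each other, both within 500 bp, were left out as divergent promoters. The rule used positions only, and it gave 287 members, or 6.48% of the peaks that passed the authors' irreproducible discovery rate (IDR) procedure. Of the remaining peaks in that list, 954 lay upstream of the TSS at non-divergent promoters, 486 at divergent promoters, and 2699 had no protein-coding TSS within 500 bp.

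The embryos, of mixed sex and aged 0 to 14 h, came from a transgenic line that stably expresses CG6254 with a C-terminal GFP fusion. The labels name the strain CG6254-GFP, describe the fusion as CG6254-eGFP, and give an insertion, with no promoter and no state of the endogenous gene. Chromatin was sonicated to a size range of 200 to 800 bp and precipitated with an antibody against GFP, and there were 3 biological replicates of this 1 group. All 3 were called against the same control alignment, no untagged sample was analysed here, and whole embryos mix all cell types, so the cells behind a peak cannot be told. Depth is unknown, since the lists hold no read counts. Replicate 3 stood apart from replicates 1 and 2: by the same rule its own strongest peaks gave 206 downstream summits against 389 and 384. Most results that rest on replicate 3 are given with and without it.

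Zinc finger proteins contact DNA through small domains that each fold around a zinc ion, and several such fingers in a row read a defined run of bases. The stretch downstream of a fly TSS holds the 5′ UTR, often the start of a first intron, and core promoter elements that help to position RNA polymerase II. Genes for ribosomal proteins in flies begin at a pyrimidine-rich initiator, the TCT motif, in place of the usual initiator.

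Most of the very strongest members shared a word of 8 bases, which few of the other members held. The 8-base word ACAGGGTG, or CACCCTGT on the opposite strand, lay within 50 bp of the summit in 14 members, and 11 of these were among the 12 members that ranked in the strongest 100 peaks. The word was picked with results of these data known, so its presence is described and not tested. The sequences below, 30 bases each from dm6 and read 5′ to 3′ on the strand of the gene, show what the strong members share and what lies around it, with the word in capitals. The class named with each is that of the summit. At CG8891 the printed bases, with the word, all lie upstream of the TSS, and at ND-13A a few do.
Ptip, first intron, chr3L:14028654-14028683, minus strand: gcgtgcgtctcACAGGGTGggttggagcgc
CG7943, 5′ UTR, chr3R:30046676-30046705, plus strand: ggaacaagtacACAGGGTGattcggtcaaa
Pak, 5′ UTR, chr3R:6351291-6351320, plus strand: gcaagcggcgtACAGGGTGcaccgtgcaaa
ND-13A, 5′ UTR, chr2L:5100176-5100205, minus strand: gcctgacagttACAGGGTGtttcgtgtcag
mor, later intron, chr3R:15972425-15972454, minus strand: tggtgagggggACAGGGTGccccgtgttgc
mmy, 5′ UTR, chr2L:6473693-6473722, minus strand: ccaaaagtaatACAGGGTGttcccagacaa
Rip11, 5′ UTR, chrX:18647212-18647241, minus strand: atcaacgggatACAGGGTGacatgtggagt
CG8891, 5′ UTR, chr2L:4979383-4979412, minus strand: tgagtaataacCACCCTGTcttttatttcg
Members that were weaker or lacked the word differ from these at their summits. The coding exon of CG34166 holds the word inside a repeated stretch, and hng3 stands for AT-rich first introns. RpL30 and RpS4 stand for ribosomal protein genes, whose pyrimidine runs are visible. Each printed stretch is centred on the summit or, in CG34166, on the word. The class is again that of the summit, and part of the RpL30 stretch lies upstream of its TSS.
CG34166, coding exon, chr2L:14743496-14743525, plus strand: caaggattcggACAGGGTGgacacggccag
hng3, first intron, chr3L:738908-738937, minus strand: ccaattggaactaattaaaattatgataat
RpL30, 5′ UTR, chr2L:19009222-19009251, minus strand: tttccgcctgttcttcctctttcttttgcc
RpS4, 5′ UTR, chr3L:13041807-13041836, plus strand: ttccttttcctgttgtattgcccgacggac

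The strongest member was also the strongest peak of the IDR list. It lay at Ptip (FBgn0052133), whose BRCT-domain product works with histone methyltransferases. The interval ran on 3L from 14028237 to 14029347, and the summit at 14028656 was in the first intron, 465 bp downstream of the TSS. Its deposited signal was 15458.9, and the matched peak was of rank 1 in each of the 3 replicates. A peak was matched when a replicate's own strongest peaks, as many as the IDR list holds, had a summit within 200 bp. The IDR peaks are the strongest peaks of a list called on the same 3 replicates pooled, so a match is partly built into their choice. The signal has no stated scale and no error, and is used here only to order peaks.

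The surroundings of this strongest summit are shown at greater length for context. The stretch is intronic throughout, and a run of GT repeats precedes the word.
Ptip, first intron, chr3L:14028593-14028743, minus strand: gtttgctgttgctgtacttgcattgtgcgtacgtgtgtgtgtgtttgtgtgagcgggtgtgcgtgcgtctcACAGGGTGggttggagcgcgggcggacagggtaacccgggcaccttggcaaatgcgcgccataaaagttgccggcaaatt

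The next members were at genes of unlike functions. CG7943 (FBgn0039741; 3R, 30045958 to 30047118) had its summit in the 5′ UTR 211 bp downstream of the TSS, with ranks 6, 5 and 4 in replicates 1, 2 and 3. At SmD3 (FBgn0023167; 2R, 12168492 to 12169489), which encodes a core protein of spliceosomal snRNPs, the summit was in a coding exon 461 bp downstream, and the ranks were 19, 17 and 17. Both kept to the top 20 of every replicate list.

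The members that followed ranked between 13 and 33 in every replicate. Pak (FBgn0267698; 3R, 6350674 to 6351704), a kinase that acts on the cytoskeleton, had ranks 24, 13 and 22 and its summit 404 bp downstream in the 5′ UTR. ND-13A (FBgn0031684; 2L, 5099803 to 5100448), a subunit of respiratory complex I, had ranks 18, 19 and 25 and a summit 6 bp downstream. mor (FBgn0002783; 3R, 15972085 to 15973229), a subunit of the Brahma chromatin remodeler, had ranks 33, 23 and 29, with the summit 454 bp downstream in a later intron.

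Beyond these, mmy (the UDP-N-acetylglucosamine pyrophosphorylase gene), prel and Rip11 (a Rab11 partner) had signals of 3735.91, 3069.18 and 1795.37. Their ranks in replicates 1, 2 and 3 were 41, 39 and 40 at mmy, 47, 51 and 45 at prel, and 77, 69 and 86 at Rip11. The first strong member without the word was at PNPase, a polynucleotide phosphorylase gene, with a signal of 1533.45, a summit 75 bp downstream and ranks 101, 83 and 89. It was the only one of the 12 members in the strongest 100 peaks that lacked the word within 50 bp.

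From there the replicates differed by more places in rank, but in proportion to rank the spread was no wider than at Pak. At ph-p, a Polycomb group gene, the ranks were 180, 152 and 105, and at CG8891 they were 138, 127 and 221. At scramb2, hng3, GstE13, TRAM, CG9399 and eas (an ethanolamine kinase gene), which end the 20 strongest members, the ranks ran from 220 at hng3 in replicate 3 to 470 at eas in replicate 3. None of the members from scramb2 to eas held the word within 50 bp.

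**Figure D1:**
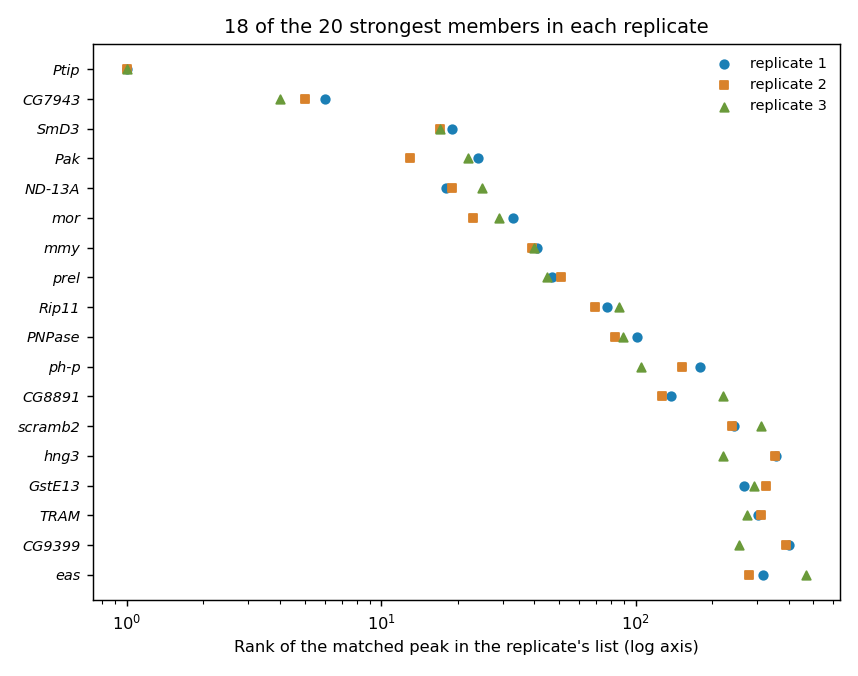
Rank of the matched peak in the list of each replicate (horizontal axis, log scale, 1 is strongest) for 18 of the 20 members of highest deposited signal, 1 row a gene and 1 symbol a replicate. Ptip is of rank 1 in each replicate, and the genes down to PNPase have ranks of at most 101. On the log scale the row of Pak, with ranks from 13 to 24, is wider than each row below PNPase.

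Over all members the word was found mostly at strong peaks. It lay within 50 bp of the summit in 12 of the 24 members among the strongest 10% of IDR peaks, in 2 of the 93 members between there and the strongest 50%, and in 0 of the 170 weaker members, where the exact 95% interval reached 2.15%. The median deposited signal was 5093 in the 14 members with the word and 204 in the 273 without. The word was within 25 bp of the summit in 13 of the 14, at a median of 12.5 bp, and it read as ACAGGGTG on the strand of the gene in 11 and on the opposite strand in 3. The windows of all eligible downstream positions, the bases that would have met the rule as a summit, held it in 0.144%. In upstream peaks it lay within 50 bp of 30 of 954 summits, or 3.14%, against 4.88% of members, and in 17 of the 29 upstream peaks among the strongest 100.

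**Figure D2:**
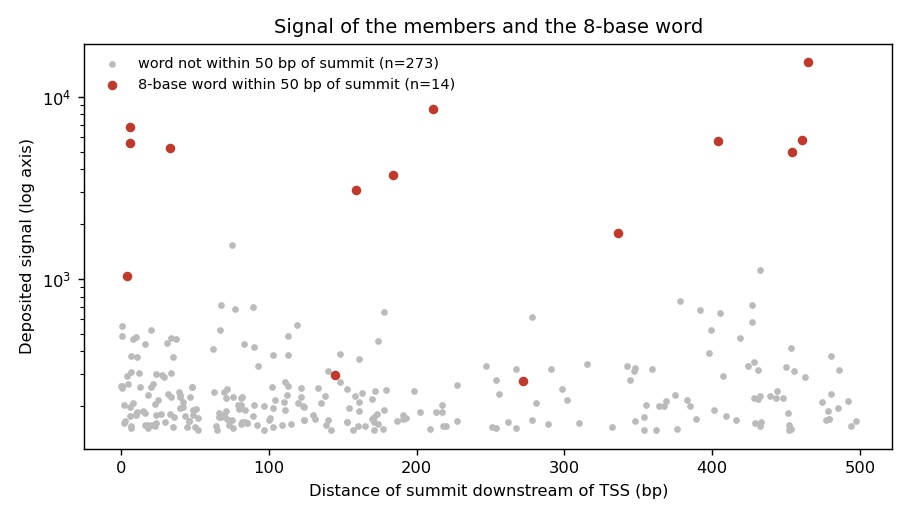
Deposited signal (vertical axis, log scale) against the distance of the summit downstream of the TSS in bp, 1 point for each of the 287 members. Red points are the 14 members with the 8-base word within 50 bp of the summit, and 11 of them are among the 12 strongest members, at distances from 6 to 465 bp.

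The weak exceptions were the coding exons of CG7049 and CG34166, with signals of 298.801 and 274.166. Their ranks were 789, 1518 and 2574 at CG7049 and 1272, 1733 and 2936 at CG34166, so that replicate 3 was lowest at both. All 14 members with the word were matched in all 3 replicates, against 121 of the 273 without it, or 44.3%. The 12 members without the word among the strongest 10% of IDR peaks were also all matched in all 3 replicates. Among strong members, then, matching did not differ with the word. Mean GC content of the summit window, which reached 50 bp to either side, was 52.1% (SD 7.71) with the word and 42.0% (SD 9.88) without.

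Most occurrences of the word in the genome had no IDR summit. Of its 116 occurrences at eligible downstream positions, 16 had an IDR summit within 100 bp, or 13.8% (exact 95% interval 8.09 to 21.4). In 5′ UTRs the count was 8 of 24, in coding exons 5 of 77 and in first introns 2 of 14. At upstream positions it was 34 of 104, or 32.7%, and at divergent promoters 21 of 35, or 60%. Away from promoters 96 of 1854 occurrences had a summit, or 5.18%.

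The 287 members belonged to 281 genes, of which 6 had more than 1 member and 48 also had an upstream peak. The next question was how the summits lay along the transcript. Members made up 23.1% of the 1241 non-divergent promoter summits (exact 95% interval 20.8 to 25.6), although 54.7% of eligible positions were downstream. When each replicate's own strongest peaks were used, the share was 27.6% in replicate 1, 27.7% in replicate 2 and 19.2% in replicate 3, with a mean of 24.8% ± 4.87 (SD, n = 3). Replicate 3 was lowest, and no list reached the eligible share.

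Summits were most frequent just past the TSS. There were 102 per Mb of eligible positions from 0 to 49 bp, 63.0 from 50 to 99 bp, 49.5 from 100 to 149 bp and 43.9 from 150 to 199 bp. Between 200 and 349 bp the density was 13.1 to 18.5 per Mb, and from 350 to 500 bp it was 22.2 to 29.9. On the upstream side it was highest from 101 to 200 bp, at 245 and 232 per Mb, and from there it fell across the TSS. The median distance was 124 bp (quartiles 48 and 306), with 97 bp, 116.5 bp and 195 bp in replicates 1, 2 and 3.

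**Figure D3:**
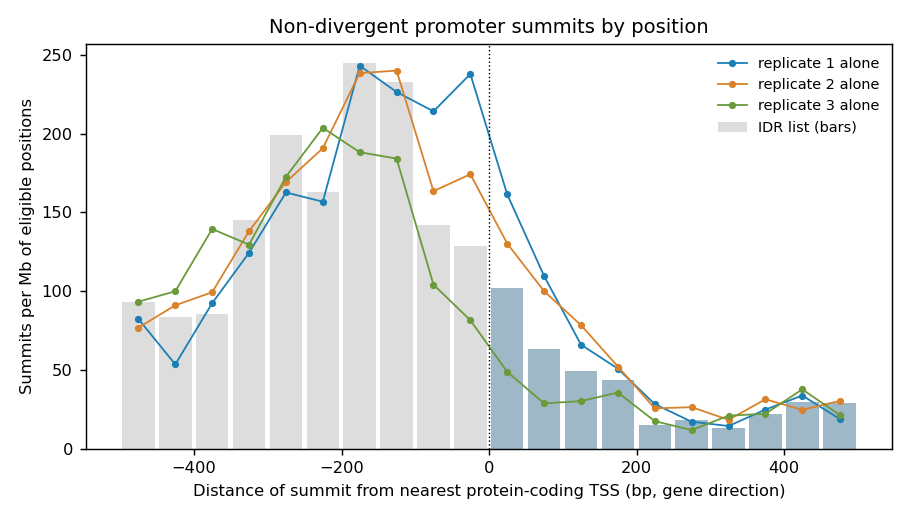
Summits per Mb of eligible positions in 50-bp bins against the distance from the nearest protein-coding TSS in bp, upstream negative. Bars are the IDR list, with members in blue and upstream peaks in grey, and lines are the strongest peaks of each replicate, as many as the IDR list holds. Replicate 3 has the lowest density from 0 to 49 bp, 48.8 per Mb against 161 and 130, and the 3 lines come together beyond 200 bp.

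Summit positions differed between replicates. The matched summit lay a median of 20 bp away in replicate 1, 6 bp in replicate 2 and 13 bp in replicate 3, and the 3 matched summits of a member spanned a median of 41 bp. Of the 135 members matched in all 3 replicates, 98 had a downstream summit in each, or 72.6%. The share was 70 of 83 for members over 100 bp from the TSS and 28 of 52 for those within 100 bp, so the side of the TSS is uncertain for a summit close to it. At the edges of the rule, SCaMC at 0 bp and yps at 1 bp were inside, with signals of 258.55 and 552.497, while RpS15Aa and clu, 2 bp upstream with signals of 222.438 and 181.805, were outside. Pdk at 494 bp and tay at 497 bp, with signals of 156.692 and 165.644, were inside the far edge, and CG31612 at 505 bp and Sgs3 at 509 bp, with signals of 710.658 and 170.212, were outside.

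In terms of the transcript, members lay in 5′ UTRs and first introns and seldom in coding exons. There were 196 in a 5′ UTR, 77 in a first intron, 11 in a coding exon, 2 in a later intron and 1 past the end of the transcript. The 5′ UTR share was 68.3%, against 50.5% of eligible positions at the same distances. The first intron share was 26.8% against 15.1%, and the coding exon share 3.83% (exact 95% interval 1.93 to 6.75) against 32.3%. Eligible positions were taken over all protein-coding genes, with a median 5′ UTR of 120 bp and first intron of 98 bp. Genes with a member had medians of 360 bp and 848 bp. Shares over positions of these genes alone were not computed, so avoidance of coding exons within them was not tested. The member past the transcript end was at CG44812, with a signal of 223.358, and the later-intron members were mor and Sxl, the master gene of sex determination, with a signal of 243.364 and a summit 444 bp downstream.

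The shift from exon to intron followed distance, and eligible positions shifted in the same direction. Within 100 bp, 95.9% of 122 members were in a 5′ UTR and 1.64% in an intron, against 81.6% and 3.75% of eligible positions. From 351 to 500 bp, 25.4% of 63 members were in a 5′ UTR and 69.8% in an intron, against 12.5% and 31.9% of eligible positions. In the same far band 3.17% were in a coding exon, against 51.4% of eligible positions. The intron share over all members was 27.5%, and it was 22.4%, 24.2% and 41.3% in replicates 1, 2 and 3, highest in the replicate whose summits lay farthest from the TSS.

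**Figure D4:**
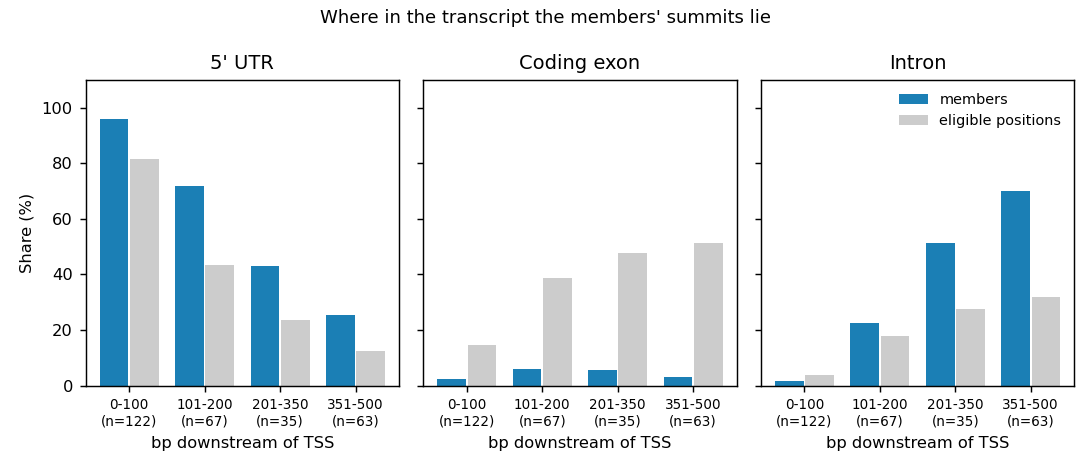
Share of members (blue) and of eligible positions at the same distances (grey) in 5′ UTRs, coding exons and introns, in 4 bands of distance from the TSS with the number of members under each. Coding exons hold under 6% of members in each band, while the eligible share, taken over all protein-coding genes, reaches 51.4%.

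Beside all protein-coding genes, genes with a member were long and often had several starts. Their median length was 5914 bp, against 7399 bp for genes with an upstream peak and 2166 bp for all protein-coding genes. Genes with a member had a median first intron of 848 bp and a median 5′ UTR of 360 bp, and 67.3% had at least 2 annotated TSSs. For genes with an upstream peak these values were 1045.5 bp, 341 bp and 58.1%, and for all protein-coding genes 98 bp, 120 bp and 26.5%. In 52 members, or 18.1%, a further TSS of the same gene lay downstream of the summit within 500 bp, so such a summit is downstream of 1 start and upstream of another. Only 4 members had a TSS of another protein-coding gene within 500 bp. A small non-coding RNA gene lay within 200 bp of 2 members and of 11 upstream peaks, a difference that did not pass Fisher's exact test (p = 0.744).

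Members were weaker and less often matched than upstream peaks. Among the strongest 10% of the list were 24 members, or 8.36%, against 153 upstream peaks, or 16.04% (two-sided Fisher's exact test, p = 0.000994, 0.00232 adjusted over 7 tests). The median deposited signal was 209 in members and 252 in upstream peaks, and among members it had next to no rank correlation with distance from the TSS (Spearman's rho 0.01 over 287 peaks, as a description). The peaks, not the embryos, are the units here, so a p here says nothing of how embryos vary. In the lists of replicates 1, 2 and 3 the shares of members in the strongest 10% of the list were 7.2%, 6.51% and 11.7%, against 14.1%, 14.7% and 16.6% of upstream peaks, so the direction was the same in each, although in replicate 3 alone the difference did not pass Fisher's exact test (p = 0.0877).

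All 3 replicates matched 135 members, or 47.0%, against 60.1% of upstream peaks (Fisher's exact test, adjusted p = 0.000366) and 56% of all IDR peaks. Replicate 3 matched 63.1% of members and 77.7% of upstream peaks (Fisher's exact test, adjusted p = 1.08e-05). Replicates 1 and 2 matched 80.8% and 84.7% of members and 81.3% and 85.2% of upstream peaks, and neither difference passed the exact test (adjusted p = 0.863 for both). With replicate 3 left out, the difference in full matching, members minus upstream peaks, went from -13.0 to -4.0 percentage points (Fisher's exact test, p = 0.204). Among the strongest 50% of IDR peaks it was -1.54 points (Fisher's exact test, p = 0.594). At lower rank, the whole list of replicate 3, 29999 peaks on the main arms, matched 253 members, against 285 and 287 in replicates 1 and 2. First-intron members were matched in all 3 replicates in 61.0% of cases and 5′ UTR members in 41.8%. These shares were not computed without replicate 3. The intron share of downstream summits in the list of replicate 3 was 41.3%, against 22.4% and 24.2% in replicates 1 and 2.

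Summit windows of members were richer in GC than those of upstream peaks. The mean GC content of the summit window was 42.5% (SD 10.01) in members, 35.1% (SD 11.2) in upstream peaks and 32.1% (SD 9.95) in divergent ones. The difference between members and upstream peaks was 7.36 percentage points, and 6.07, 6.91 and 6.88 in replicates 1, 2 and 3. Eligible positions at the same distances also differed, at 45.0% for members and 39.4% for upstream peaks, and the peaks minus these positions gave -2.51 points for members and -4.26 points for upstream peaks. Against eligible positions of the same distance and transcript class, 42.4%, members as a whole were 0.120 points higher. First-intron members had 37.5% against 39.3%, and 48 of 77 were below, while 5′ UTR members had 44.1% against 43.2%.

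**Figure D5:**
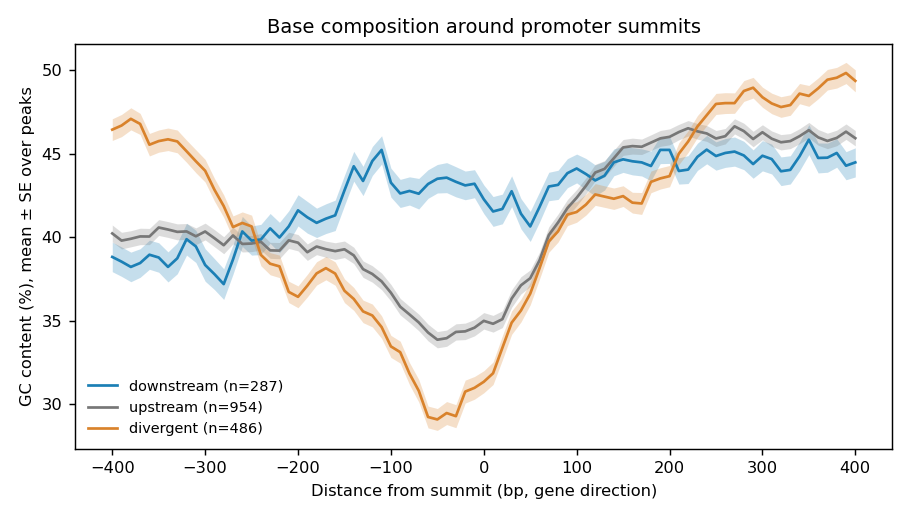
Mean GC content in 21-bp windows against the distance from the summit in bp, in the direction of the gene, for 287 downstream, 954 upstream and 486 divergent promoter peaks, with bands of 1 standard error over peaks. The upstream and divergent lines fall to 33.9% and 29.1% at 50 bp before the summit. The line of the members is not lowest near the summit. It is at 37.2% at 280 bp before the summit, 45.2% at 110 bp before it and 40.7% at 50 bp past it.

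Over all IDR peaks no motif passed the test between members and upstream peaks. Of 18 motifs searched on both strands within 50 bp of the summit, 0 (0%) differed after Benjamini-Hochberg adjustment over the 18 Fisher's exact tests, with a lowest adjusted p of 0.162, and 3 had an unadjusted p under 0.05. These were the TATA box (STATAWAW; 5.57% of members, 10.4% of upstream peaks and 4.34% of eligible downstream windows), the CA repeat (CACACACA; 4.18%, 1.57% and 2.65%) and the DNA replication-related element (TATCGATA; 0%, 1.47% and 0.285%). The TCT initiator (YYCTTTYY) was in 14.3% of members, 11.6% of upstream peaks and 9.16% of eligible downstream windows. In lists of single replicates some motifs did pass, with adjusted p from 0.00119 to 0.0458 by Fisher's exact test. The CA repeat was more frequent in members in replicate 2 (6.51% against 2.00%) and replicate 3 (3.88% against 0.924%), the E-box CAGCTG more frequent in replicate 3 (7.28% against 2.54%), and ATCGAT less frequent in replicate 1 (2.31% against 7.54%). With 100 bp to either side of the IDR summits, the CA repeat (10.1% against 3.67%) and the TCT initiator (28.9% against 21.3%) were more frequent in members and the TATA box less (10.1% against 17.4%), with adjusted p from 0.000979 to 0.0498 by the exact test.

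Of all words of 6 bases, with a word and its reverse complement counted as 1, 88, or 4.23%, differed between members and upstream peaks (Fisher's exact tests, Benjamini-Hochberg adjusted over all words), 52 more frequent in members and 36 less. Of the 52, 33 held at least 4 G or C bases, and of the 36, 35 held at most 1, in the direction of the difference in GC content. CCGTCG was in 7.32% of member windows and 1.36% of upstream ones (Fisher's exact test, adjusted p = 0.000328), and ACACAC in 15.3% and 6.08% (adjusted p = 0.00091). ATATTA was in 6.27% and 21.1% (exact test, adjusted p = 1.23e-06). The number of such words was 6, 10 and 23 when peaks had to be matched in the replicates other than 1, 2 and 3, which leaves 156, 152 and 197 members.

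The gene lists were read against all protein-coding genes, 2.02% of which had a member. The cytosolic ribosomal protein list, by symbol and so including paralogs named alike, had a member at 15 of 93 genes or 16.1%, the highest share of the 21 lists over all IDR peaks. In a comparison added after seeing the data, peaks matched in the replicates other than 1, 2 and 3 gave 8.60%, 9.68% and 12.9%, each below the 13.8% of Polycomb and Trithorax group genes. Mitochondrial ribosomal protein genes had 0 of 73 and aminoacyl-tRNA synthetase genes 0 of 32. Their exact 95% intervals reached 4.93% and 10.9%, so neither count sets its list apart from the 2.02% of all protein-coding genes. Counted over promoter summits of any kind, 60 of the 93 cytosolic ribosomal protein genes had one, or 64.5%, against 14.8% of all protein-coding genes. The list was chosen with results of these data known, and the counts are a description.

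The members at ribosomal protein genes sat close to the start. Of the 15, 14 were in the 5′ UTR and within 100 bp, at a median of 20 bp, with signals from 158.744 at RpS6 to 656.013 at RpS24. RpS24, the exception, had its summit 178 bp downstream in the first intron and ranks 341, 323 and 384 in replicates 1, 2 and 3. RpS4 had ranks 286, 531 and 1118, and RpL30, whose summit was 1 bp from the TSS, had ranks 432, 404 and 1742. At RpS4 and RpL30 replicate 3 ranked the peak lowest. The TCT initiator lay within 50 bp of the summit in 13 of the 15, against 28 of the other 272 members and 6 of the other 108 within 100 bp of a TSS, and the 8-base word in 0 of the 15.

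Of these 15, replicate 3 matched the fewest. Replicate 1 matched 15, replicate 2 matched 12 and replicate 3 matched 9, and 8 were matched in all. In lists made from each replicate alone, 15, 16 and 8 ribosomal protein genes had a member. Among peaks matched in the replicates other than 1, 2 and 3 the counts were 8, 9 and 12.

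Other genes of protein synthesis appeared at modest rank. Of 54 translation factor genes, 4 had a member, or 7.41%: eEF2, eEF5, eEF1alpha1 and eIF5B. eEF2, the translocase of elongation, had its summit 7 bp downstream and ranks 1464, 1087 and 1757. eEF5, a factor that helps ribosomes through proline runs, had ranks 851 and 1814 in replicates 1 and 2 and rank 10161 in the whole list of replicate 3. eEF1alpha1, which delivers tRNAs to the ribosome, had ranks 1872, 3464 and 2576.

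Energy, chromatin and splicing lists mixed strong word-bearing members with weak ones. Of 87 oxidative phosphorylation genes, 4 had a member: ND-13A, ND-B14, ATPsynC and UQCR-14. ND-B14 had ranks 2556, 941 and 3386. ATPsynC, the c subunit of ATP synthase, had a first-intron member 432 bp downstream with ranks 2992, 2028 and 3619. It also had a 5′ UTR member 82 bp downstream, with ranks 1513 and 1671 in replicates 1 and 2 and no match in replicate 3. Both genes ranked far below ND-13A. Of 29 Polycomb and Trithorax group genes, 4 had a member, or 13.8%: Ptip, mor, ph-p and Utx, with summits 432 to 465 bp downstream. Of 19 splicing genes, SmD3 and B52 had a member, and B52, an SR protein gene, had ranks 1993, 1439 and 1695.

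Members at patterning genes were weak, and those at cytoskeleton genes mixed. Of 45 signalling genes, 4 had a member, 8.89%. The Wnt receptor gene fz had ranks 982, 4062 and 4216, the ETS repressor gene aop had 1087, 2675 and 3795, and the protease gene kuz had 1856 and 4073 in replicates 1 and 2. The BMP receptor gene tkv also had a member. Each of fz, aop and kuz ranked highest in replicate 1. Of 22 cytoskeleton genes, Pak, sqh and Act5C had a member. Pak was among the strongest, and sqh and Act5C were weak and were matched in replicates 1 and 2 but not in replicate 3, with ranks 1437 and 2492 at sqh and 2521 and 3400 at Act5C.

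Some lists had a single gene with a member. These were the nuclear receptor gene Eip75B (62 bp, ranks 822, 818 and 812) of 23 ecdysone and nuclear receptor genes, bgcn, needed for germ cells to differentiate (148 bp, ranks 487, 1086 and 1353) of 22 germline genes, and Dp, the partner of E2F (424 bp, ranks 1294, 1472 and 1218) of 32 cell cycle genes. Trl, which encodes GAGA factor (140 bp, ranks 2355, 1570 and 1172), was the only one of 20 insulator genes, and the ubiquitin receptor gene Rpn10 (23 bp, ranks 2422 and 3463 in replicates 1 and 2) of 48 proteasome genes. Eip75B held nearly the same rank in each replicate. Lists with 0 genes were heat shock and chaperonin (33), small GTPases (21), ZAD zinc finger proteins (33), Hox, gap and pair-rule genes (29), muscle and neuronal genes (30), cuticle proteins (118) and chemosensory receptors (179). Of all protein-coding genes 2.02% had a member, so a count of 0 or 1 in a list of 20 to 48 genes does not set it apart. Cuticle protein and chemosensory receptor genes had 0 promoter summits of any kind, so their counts are not particular to members.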

How the data were processed

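The authors deposited, for dm6, a relaxed peak list of each replicate and of the pooled replicates, and an IDR list, per the file headers and readme texts; the dm3 lists were not used. The deposited signal of each peak is the caller's value on an unstated scale, used only to rank and describe. The deposited −log10 q-value was not used in a test. For the aligner, the caller and the IDR threshold, a name or value is not given in the sources used here. Members and gene lists were chosen with earlier results of these data known. TSSs came from Ensembl release 115 (19607 positions, 13945 protein-coding genes) and sequence from the RefSeq copy of dm6, whose arm lengths equal the annotation's. Eligible positions are all bases on the main arms that would meet the rule. Peaks were compared with two-sided Fisher's exact tests in scipy 1.17.1, with Benjamini-Hochberg adjustment in statsmodels 0.14.6. Exact 95% intervals cover counting error only. Named genes were the 20 strongest members, the 3 strongest of each list and transcript class, and those nearest the limits of the rule, of which 2 are not reported here; symbols given only as list counts (UQCR-14, eIF5B, tkv, Utx, RpS6) were added to complete short lists. Alternatives were windows of 200 and 1000 bp, other TSS choices, the strongest 50% of peaks, 1 summit for each interval, divergent promoters kept, each replicate alone or left out, match distances of 100 and 400 bp, and summit windows of 25 and 100 bp. The rule, motif search and 6-base test were tested on simulated data.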

Additional observations from a re-analysis of the deposited data

How the results depend on the processing

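No paired analysis was possible because all 3 samples belong to 1 group. The depth is unknown, so a weak member of 1 replicate may fall under the limit of another. Leaving out a replicate kept IDR peaks matched in the others, whose positions that replicate still shaped. The small RNA difference was -0.456 percentage points and turned to 0.573 with a 200 bp window (Fisher's exact test, p = 0.269). The match difference was -5.16 points in replicate 3 alone and -1.54 among the strongest 50% of peaks, neither past the threshold, and -13.7 to -4.0 when a replicate was left out. The difference in the strongest 10% was -4.98 (Fisher's exact test, p = 0.0877) in replicate 3 alone and -7.87 (p = 0.0858) in the strongest 50% of peaks, and -9.90 to -8.19 with a replicate left out. Over all alternatives the exact p for matching went up to 0.594. The downstream share moved to 29.4% with a 1000 bp window, 28.1% with outermost TSSs and 17.8% in the strongest 50% of peaks. The median distance was 72 bp and 432 bp with windows of 200 and 1000 bp and 195 bp in replicate 3, and the intron share 10.4%, 53.4% and 41.3%. The GC difference stayed positive, from 4.28 (1000 bp) through 6.51 (200 bp), 8.12 (outermost TSSs), 8.77 (canonical transcript), 8.63 (strongest 50%), 6.84 (divergent promoters kept), 6.07 (replicate 1), 7.93 (25 bp summit window) and 6.24 (100 bp). Motifs past the threshold numbered 1, 1 and 2 in replicates 1, 2 and 3 alone and 3 with a 100 bp summit window. Words of 6 bases numbered 39 and 10 with windows of 200 and 1000 bp, 7 in the strongest 50% of peaks, 142, 138 and 45 in replicates 1, 2 and 3, 17 and 195 with 25 and 100 bp summit windows, and 6 to 23 with a replicate left out. Ribosomal protein genes with a member numbered 19 with a 200 bp window, 20 with outermost TSSs and 20 with divergent promoters kept. They numbered 8 with a 1000 bp window, 10 in the strongest 50% of peaks, 8 in replicate 3 alone and 8 to 12 with a replicate left out. The cause of these changes was not tested.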
